A study of Drosophila melanogaster with 4 samples.

Results

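Tightly packed runs of RNA polymerase II (Pol II) regions were stretches of the *Drosophila melanogaster* genome in which 3 or more Pol II-enriched regions followed each other with gaps of at most 1000 bp. They were taken from the list the authors made for both replicates together, the whole-series list, on the major chromosome arms 2L, 2R, 3L, 3R and X. A run was made of consecutive regions of that list, each below 5000 bp wide, and a wider region ended it. By this rule 1309 regions were packed, in 389 runs. They were 13.2% of the 9885 regions of the whole-series list and 14.3% of the 9160 major-arm regions below 5000 bp. The other 7851 of these are called other narrow regions. The members were chosen by the position and width of whole-series regions alone, and the score and the replicate support described here come from the same libraries. Every comparison is therefore a description, and no test was run.

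The embryos were wild-type Oregon-R, 14 to 16 h old and crosslinked with 1.8% formaldehyde, and chromatin was precipitated with a commercial antibody against Pol II (abcam). There were 2 ChIP libraries and 2 input libraries, all of the same strain and stage, so the study held no contrast between conditions. Whole embryos were used, and the lists hold the sum over all tissues. The labels do not say whether the replicates came from separate embryo collections, so the spread between them may be technical.

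Pol II transcribes protein-coding genes. In flies and other animals it often pauses just downstream of the transcription start before it moves into the gene body, so enrichment can be a short peak at a promoter or a longer tract along a transcribed gene. The fly genome is compact, and neighbouring genes, including pairs that start close together and point away from each other, can lie within a short distance. Which genes or promoters lie in the packed runs was not analysed here, because the positions are on FlyBase release 5 and no annotation or genome of that release was used. All coordinates are on release 5 and count from 1, and members are given by position, without sequence.

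Most packed runs were short. Of the 389 runs, 287 (73.8%) had 3 members, 75 had 4, 16 had 5, 9 had 6 and 2 had 7. A run spanned a median of 7714 bp, with quartiles of 6361 and 9354 bp, a minimum of 3470 bp and a maximum of 19611 bp. There were 71 runs longer than 10 kb and 13 longer than 15 kb. Together the runs spanned 3.19 Mb, or 2.68% of the major arms. Pol II regions filled a median of 88.3% of a span, a share that the gap limit holds high. Packed regions were 1001 to 4979 bp wide, with a median of 1922 bp, against 1884 bp for the other narrow regions.

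The gaps inside runs were mostly well below the limit. Over all 9709 neighbouring pairs on the major arms the median gap was 3425 bp, and 2317 gaps (23.9%) were at most 1000 bp. Of these, 920 lay inside packed runs, with a median of 376.5 bp, which the rule holds below the median over all pairs. The number of gaps per 100 bp fell unevenly from 346 for gaps below 100 bp to 106 near 2 kb, with 145 just below the limit of the rule and 150 just above it. Gaps inside runs were 126 of the 346 below 100 bp and 54 of the 145 just below the limit. Short gaps were thus not particular to packed runs. Inside runs 127 gaps (13.8%) were at most 100 bp, and 1 was 0 bp, so that these members touched. Runs were flanked by a region of 5000 bp or wider within the gap limit in 33 cases (8.48%), and on both sides in 2. The regions just inside and just outside the rule had similar scores. The 54 members that followed an inner gap above 900 and up to 1000 bp had a median score of 0.468, and 33.3% of them overlapped both replicates. For the 138 narrow regions that followed a gap above 1000 and up to 1100 bp the values were 0.467 and 28.3%. At the width limit, the 31 members of at least 4500 bp had a median score of 0.673 and overlapped both replicates in 77.4% of cases. The 63 regions of 5000 to 5500 bp with a neighbour within the gap limit had 0.642 and 87.3%. Narrow regions in pairs, 1 region short of a run, numbered 2144, with a median score of 0.459 and 30.8% overlapping both replicates.

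**Figure D1:**
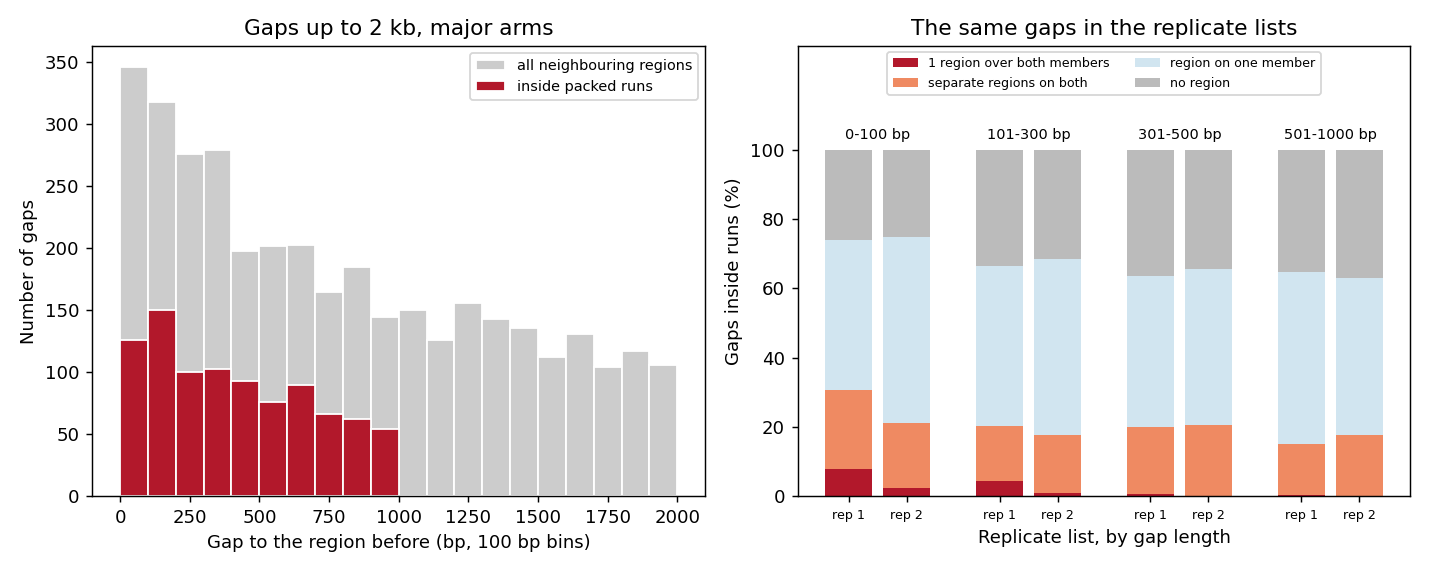
Left, the number of gaps between neighbouring whole-series regions on the major arms in 100 bp bins up to 2000 bp, for all neighbours (grey) and inside packed runs (red). Right, the share of the 920 gaps inside runs, by gap length and replicate, at which 1 replicate region reached both members, separate replicate regions lay on both, a region lay on one member, or none did. Gaps covered by 1 replicate region were few and were mostly short ones.

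Packed regions were recovered in the replicates a little less often than other narrow regions. A packed region was counted as supported where it shared at least 1 bp with a region of a replicate's own list. Of the 1309 packed regions 416 overlapped both replicates (31.8%, Wilson 95% interval 29.3 to 34.4), against 38% of all major-arm regions. Another 321 (24.5%) overlapped one replicate, against 21.1% of all, and 572 (43.7%, interval 41.0 to 46.4) overlapped neither, against 40.9% of all. These background shares include the wide regions, of which 95.7% overlapped both. Among the other narrow regions 35.0% (interval 34.0 to 36.1) overlapped both and 43.3% neither. By replicate, 44.5% of packed regions overlapped replicate 1 and 43.5% overlapped replicate 2, a mean of 44.0% ± 0.7 (SD, n = 2). For other narrow regions the mean was 45.9% ± 0.3 (SD, n = 2). With a replicate left out, the share overlapping the remaining one differed by -2.51 points (packed minus other) without replicate 1 and -1.16 without replicate 2. The difference in the share overlapping both was -3.23 percentage points, and -0.52 with no width limit. It changed sign when replicate regions were extended by 500 bp on each side. It then stood at 4.58 points more for packed regions, whose neighbours lie by the rule within 1000 bp. The part of close neighbours in this change was not tested. Intervals cover counting error only, and neighbouring regions depend on each other.

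Measured by bases instead of regions, replicate regions covered 43.5% ± 0.2 (SD, n = 2) of the bases of packed regions and 48.0% ± 0.7 (SD, n = 2) of those of other narrow regions. Both replicates lay on the same side. Support followed no single order with run size. The share overlapping both was 33.7% of the 861 members of 3-member runs, 27.7% of 300 in runs of 4 and 23.8% of 80 in runs of 5. It was 35.2% of the 54 members of 6-member runs and 35.7% of the 14 members of 7-member runs, which are few. Pairs, at 30.8%, stood below the 3-member runs. Single narrow regions had 36.6%.

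The difference in the share overlapping both replicates was largest at widths above 2000 to 3000 bp. Support rose steeply with width in packed and other narrow regions alike. Of the 263 packed regions up to 1300 bp wide none overlapped both replicates, which allows a share of up to 1.14%, and none of the 1992 other narrow regions of this width did. The narrowest region in either replicate list was 1301 bp. At widths above 1300 to 1600 bp the shares overlapping both were 0.94% in packed and 0.29% in other regions. Above 1600 to 2000 bp they were 12.2% (interval 8.6 to 17.1) and 17.6% (interval 15.7 to 19.5). In this class 46.7% of packed and 34.7% of other regions overlapped neither replicate. The difference in each replicate alone was -5.63 points in replicate 1 and -11.7 points in replicate 2. Above 2000 to 3000 bp 56.8% of 368 packed regions overlapped both (interval 51.7 to 61.8), against 72.9% of 2267 other regions (interval 71.1 to 74.7). Counted in each replicate alone, the difference was -10.1 points in replicate 1 and -11.0 points in replicate 2. Neither replicate was overlapped by 13.9% of packed and 8.91% of other regions of this class. Packed regions of this class were the wider ones, with a median of 2368 bp against 2226 bp. Above 3000 bp the shares were 75.0% (interval 69.1 to 80.1) and 80.3% (interval 77.8 to 82.7), and the intervals overlapped. In the class above 2000 to 3000 bp the difference of -16.1 points kept its sign under all 8 alternatives run. It ran from -22.5 points for runs of 4 or more to -8.84 points with replicate regions extended. With a replicate left out, the share was that overlapping the remaining one.

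**Figure D2:**
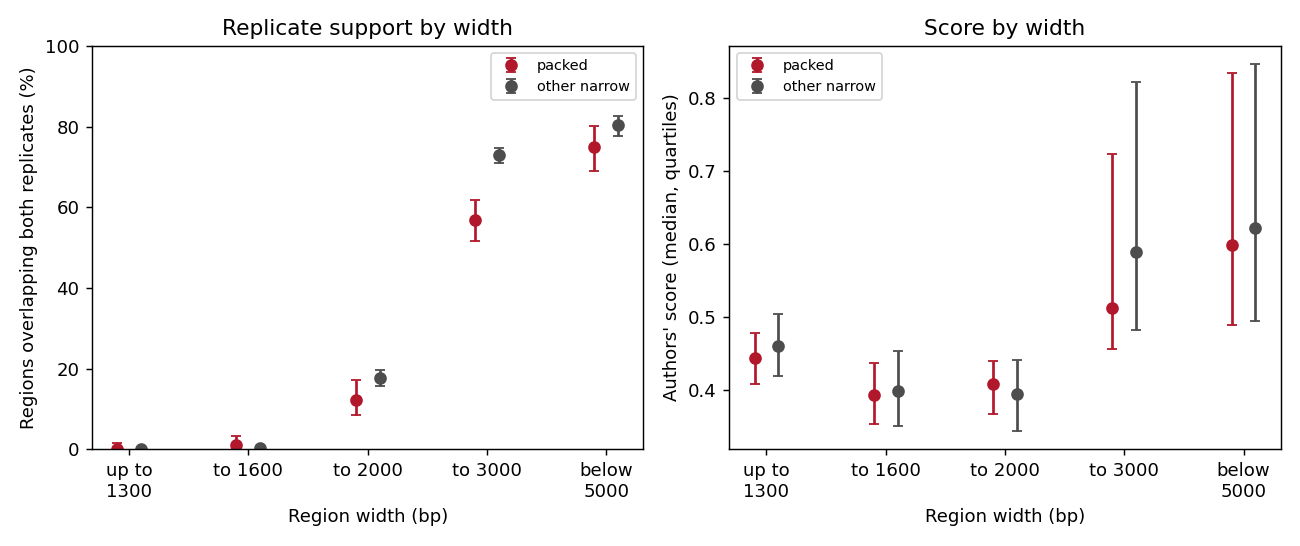
Left, the percentage of whole-series regions that overlapped a region of both replicates, by region width, for packed regions (red) and other narrow regions (grey), with Wilson 95% intervals. Right, the median of the authors' score with quartiles for the same classes. The packed regions sit below the others above 2000 to 3000 bp, at 56.8% against 72.9% and at a score of 0.513 against 0.589.

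The score is the authors' own value per region. Its formula and scale were not given in the sources used here, so it is used only within a list. Packed regions had a median score of 0.458, with quartiles of 0.405 and 0.541. Other narrow regions had 0.469, with quartiles of 0.406 and 0.575, so the difference of medians was small beside the spread of either. Regions of 5000 bp or wider had 0.734. Of the packed regions 100 (7.64%) were in the top 10% of the list by score, against 8.64% of other narrow regions. By width, the packed and other medians were 0.445 and 0.461 up to 1300 bp, and 0.408 and 0.396 above 1600 to 2000 bp. They were 0.513 and 0.589 above 2000 to 3000 bp, where support also differed, and 0.599 and 0.622 above 3000 bp. The part of the score in the support of this class was not tested.

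At like scores packed regions overlapped both replicates more often than others in the upper 2 of 5 score classes and less often in the lower 3. Narrow regions were split into 5 classes of equal size by score. In the highest class, 96.5% of 228 packed regions overlapped both replicates, against 93.7% of 1604 others. In the next class the shares were 46.0% and 40.8%. In the lower 3 classes packed regions had the smaller share, 14.3% against 16.1%, 8.74% against 11.5% and 8.02% against 10.8%. The shares overlapping neither replicate, in the same order, were 49.8% against 57.9%, 61.8% against 62.2% and 64.5% against 50.8%. Of these 3 classes, packed regions lacked any support more often than others only in the lowest. Packed regions of the upper 2 classes were wider than the others, with medians of 2919 against 2377.5 bp and 2230 against 2033 bp. The replicates' own scores showed little difference. Replicate 1 regions that overlapped a packed region had a median score of 0.685, against 0.681 for those on other narrow regions alone. In replicate 2 the medians were 0.670 and 0.674, so that the sign was not shared over all widths. For replicate regions up to 2000 bp wide the medians on packed and other regions were 0.584 and 0.569 in replicate 1, and 0.583 and 0.544 in replicate 2. Above 3000 bp they were 0.964 and 0.910 in replicate 1, and 0.880 and 0.878 in replicate 2. In these classes packed regions were the higher ones in both replicates. Above 2000 to 3000 bp they were lower in replicate 1, at 0.822 against 0.844, and higher in replicate 2, at 0.847 against 0.835.

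Members of a run differed in score and width. The highest-scoring members of the 389 runs had a median score of 0.612 and a median width of 2444 bp, and 64.8% of them overlapped both replicates. The remaining 920 members had 0.430, 1724 bp and 17.8%. Choosing the highest score in each run raises that score by construction, and width and support rose with it. Scores varied as much inside runs as over all members. The SD was 0.248 within runs and 0.243 over all packed regions, while run means had an SD of 0.128. The median run had a difference of 0.228 between its highest and lowest score, with quartiles of 0.106 and 0.510, so some runs were even and others mixed high and low members.

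Support was mixed in the same way. In 283 runs (72.8%) at least 1 member overlapped both replicates, and in 176 of them it was exactly 1. There were 223 runs (57.3%) that held a member found in both replicates together with a member found in neither. Over all packed regions 31.8% overlapped both and 43.7% neither. How many such runs these shares alone would give was not computed, so the counts are not read as a trait of runs. All members overlapped both replicates in 13 runs, each with 3 members, and no member overlapped a replicate region in 29. The 2 replicates also differed in which members they recovered. Of the packed regions 167 were found in replicate 1 alone and 154 in replicate 2 alone. The number of members recovered was the same in both replicates in 177 runs (45.5%) and differed by 2 or more in 48 (12.3%). Every member was recovered by replicate 1 in 34 runs and by replicate 2 in 32, and in 40 runs a single replicate recovered them all.

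**Figure D3:**
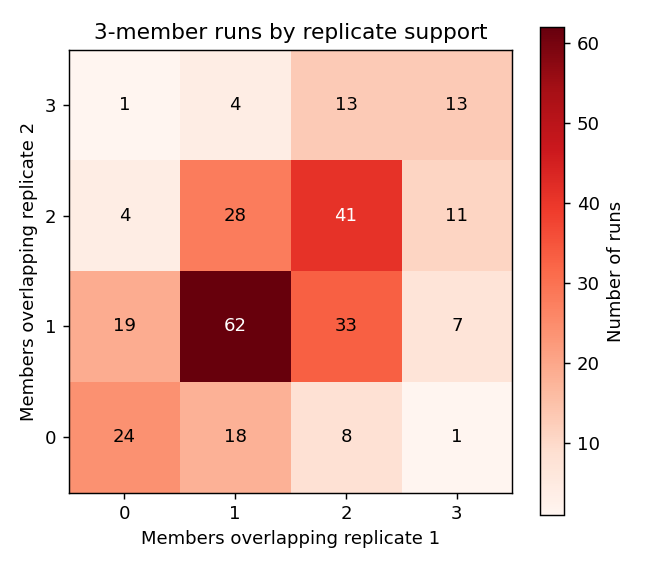
The 287 runs with 3 members, by the number of members that overlapped replicate 1 (horizontal) and replicate 2 (vertical), with the number of runs printed in each square. The largest square holds 62 runs in which each replicate recovered 1 member, and 13 runs had all 3 members in both.

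Members at the ends of runs were recovered more often than those inside. Among the 778 end members 35.5% overlapped both replicates (interval 32.2 to 38.9), against 26.4% of the 531 inner members (interval 22.8 to 30.3). By replicate, end members overlapped in 46.9% ± 2.0 and inner members in 39.8% ± 1.2 (SD, n = 2). In 3-member runs, where each position has the same number of regions, the first member overlapped both replicates in 40.8% of runs, the middle one in 27.5% and the last in 32.8%. The first and last members, which differ only in coordinate order, were thus farther apart than the last and the middle. The highest score was in the first member in 118 of these runs, in the middle one in 78 and in the last in 91. The middle member was less often the highest than either end. Inner members were a little narrower, with a median of 1846 bp against 1973.5 bp, and the part of width in this difference was not tested. With replicate regions extended by 500 bp on each side the difference of -9.11 points between inner and end members became 0.79 points. Without replicate 1, in the share overlapping replicate 2, it was -4.82 points.

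Single replicate regions seldom covered the gaps of the packed runs. At 23 of the 920 inner gaps (2.50%) a single replicate 1 region reached the members on both sides, and at 5 (0.54%) a single replicate 2 region did. No gap was covered in both replicates, which allows a share of up to 0.33%. Over all 2317 gaps of at most 1000 bp in the list, packed or not, the count was also 0. Members are separate regions of a list made for both replicates together, so these counts may be low by construction. A replicate with no region on one or both sides of a gap could not cover it. The covered gaps were short, with a median of 112 bp and a maximum of 540 bp. Separate regions lay on both sides of the gap at 17.7% ± 0.8 of inner gaps, a region lay on one side at 47.2% ± 0.9, and neither side had a region at 33.6% ± 0.3 (SD, n = 2). Both replicates had separate regions on both sides at 80 gaps. These are the gaps that each replicate list shows by itself. For the rest, at least one replicate list lacked a region on one or both sides or joined the members.

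The replicate lists held far fewer packed runs of their own. Under the same rule replicate 1 had 153 packed regions in 49 runs, or 3.11% of its 4922 narrow major-arm regions. Replicate 2 had 214 in 67 runs, or 4.33% of 4938. The whole-series list held 389 runs, against a mean of 58.0 ± 12.7 (SD, n = 2). No replicate region was below 1301 bp wide, and whole-series regions of at least that width alone gave 211 runs. The replicate lists are shorter and their regions lie farther apart, with 10.8% and 11.4% of gaps at most 1000 bp. Replicate runs often lay elsewhere than the packed runs of the whole-series list. Of the replicate 1 runs 17 (34.7%) overlapped a whole-series run and 29 (59.2%) touched a whole-series region of 5000 bp or wider. For replicate 2 the counts were 24 (35.8%) and 38 (56.7%). Entire replicate runs lay within 1 whole-series region in 13 and 18 cases. Runs of the 2 replicates overlapped each other at 4 places, which was 8.16% of the replicate 1 runs and 5.97% of the replicate 2 runs.

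Only 2 packed runs of the whole-series list overlapped runs of both replicates, and both were picked out after their values were seen. The first was 3L from 10848646 to 10859760, where members of 3620, 4792 and 2075 bp scored 1.18, 0.69 and 0.43. Replicate 1 had 1 region on each of them and replicate 2 had 1, 2 and 1. The second was 3R from 15699894 to 15706656, with 3 members of 2033 to 2082 bp that scored 0.47 to 0.56. It had 1 region of each replicate on every member, and the replicates covered 82.0% and 88.3% of its span.

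The 10 runs with the most members, with longer spans first among ties, showed how the replicates divided them. The longest was X from 10621192 to 10640802, with 7 members over 19611 bp and gaps of 43 to 701 bp. Its last member, from 10637328 to 10640802, scored 2.32 and ranked 20 in the list, while the other 6 scored 0.40 to 0.62. Of the 7 members 3 overlapped both replicates, 1 overlapped replicate 2 alone and 3 overlapped none. The other 7-member run, 2R from 7950336 to 7967827, had even scores of 0.41 to 0.55 and a mean gap of 141 bp. Replicate 2 recovered 5 of its members and covered 62.3% of the span, whereas replicate 1 recovered 2 and covered 16.0%. Its support came mostly from one replicate.

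Among the 6-member runs, 3R from 24725651 to 24744295 was the only one in which a single replicate recovered every member. Replicate 2 had 6 regions there and replicate 1 had 2, and member scores were 0.38 to 0.57. The best supported by both was 3R from 16643596 to 16660295, where 4 members overlapped both replicates, 1 overlapped replicate 1 alone and 1 overlapped none. At 2L from 20787500 to 20803032 the middle pair scored 1.13 and 1.66 and was found in both replicates, while the 4 flanking members scored 0.41 to 0.46 and were found in neither. Both replicates thus listed the core of this run alone. At 3L from 6197602 to 6212724 the first 3 members overlapped no replicate region and the last 3 overlapped both, with the score rising to 0.97 in the last. At 2R from 9431847 to 9449253 replicate 1 recovered 5 members and replicate 2 recovered 3. At X from 1973373 to 1991263 a single replicate 1 region lay over the first 2 members, scored 1.52 and 0.45, which replicate 2 had only in the first. At 3L from 12512253 to 12528801 replicate 1 recovered 4 members and replicate 2 recovered 1. At X from 1149051 to 1162283 no member overlapped both replicates, 2 overlapped replicate 2 alone, and all scores lay between 0.47 and 0.52. The remaining 6-member run, 2R from 11425289 to 11438403, had the shortest span of the 9 and is not in the map of runs. It had 1 member in both replicates, 2 in one and 3 in neither.

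**Figure D4:**
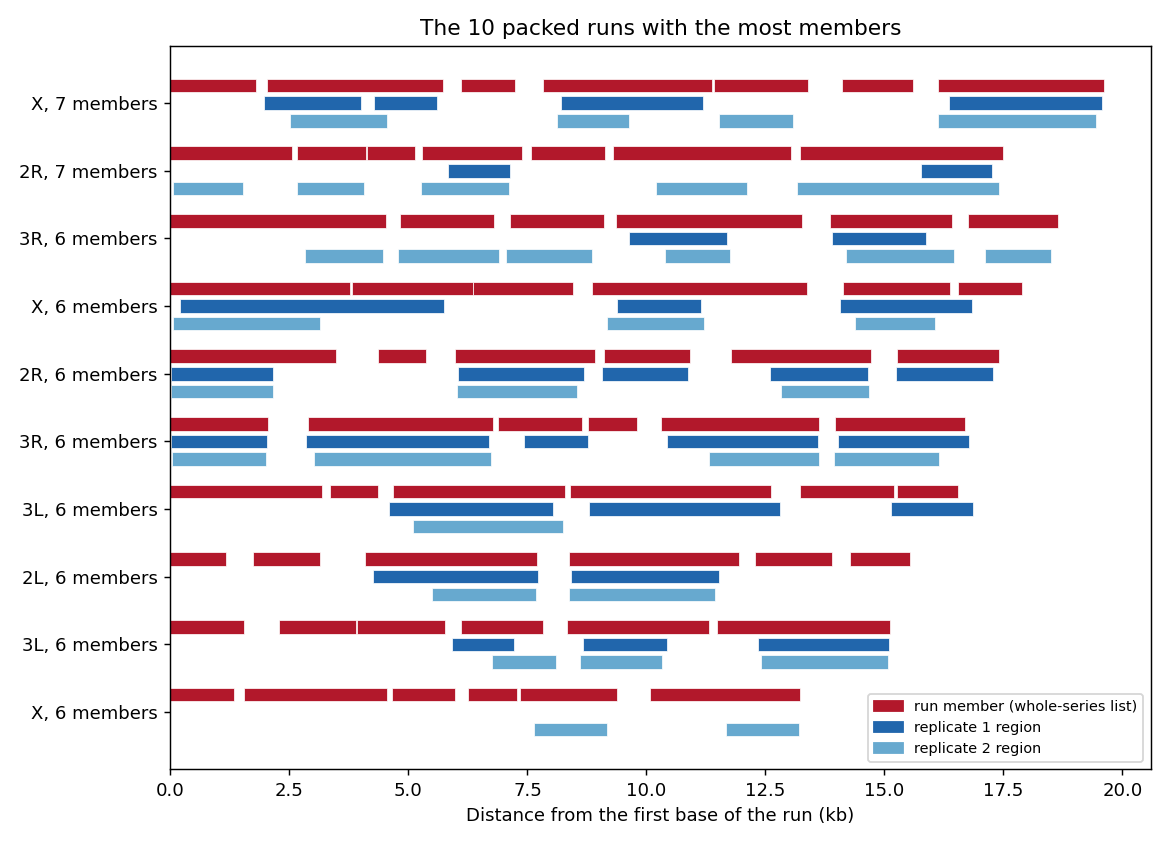
The 10 packed runs with the most members, longer span first among runs of equal size, with whole-series regions (red), replicate 1 regions (dark blue) and replicate 2 regions (light blue) drawn by distance from the first base of the run in kb. The replicates filled the runs unevenly, as in the 2R run of 7 members with 2 replicate 1 regions and 5 replicate 2 regions.

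Runs with high scores were not always the well supported ones. The run with the highest median score was 3L from 4070540 to 4077056, whose members scored 1.14, 1.03 and 0.42. A gap of 13 bp separated the first 2, each replicate had a separate region on both, and neither had one on the last. The run 3L from 7331551 to 7342541 came next with scores of 0.89, 0.93 and 0.84, and all its members overlapped both replicates. It had 4 regions in each replicate for 3 members. At 2L from 6419120 to 6427432 the middle member scored 0.85 and was in both replicates, but the last, 1051 bp wide, scored 0.90 and was in neither. Among runs with no replicate region the one with the longest span was 3R from 16910943 to 16918608, with 4 members that scored 0.37 to 0.49. At 2L from 9221972 to 9229056, also without a replicate region, the first member of 1141 bp scored 0.87 and the others 0.34 to 0.49. Lack of support was usual at such widths. Of regions up to 1300 bp, 92.8% of packed and 93.4% of other narrow ones overlapped neither replicate, and no replicate region was below 1301 bp.

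The highest-scoring packed region of the whole list was also a narrow one without support. It was X from 6230823 to 6231837, 1015 bp wide, with a score of 3.09 and rank 1 of the list, and no replicate region overlapped it. Of the 100 packed regions in the top 10% by score it was the only one found in neither replicate. Among the 678 other narrow regions in the top 10%, 24 (3.54%) were found in neither, with a median width of 1014 bp. The highest-scoring packed regions of the other arms all overlapped both replicates. They were 2R from 8866788 to 8869649 with a score of 2.56, 2L from 157950 to 162928 with 1.69, 3L from 6956342 to 6958913 with 1.67, and 3R from 22359774 to 22363719 with 1.45. On 2R, 2L and 3L the region was the last of 3 members, and on 3R the first of 4.

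Packed runs were densest on 2R. There 328 of 1878 narrow regions were packed (17.5%, interval 15.8 to 19.2), in 98 runs or 4.63 runs per Mb. On 3L the share was 15.2% (interval 13.6 to 16.9) with 3.38 runs per Mb, and on 3R 13.6% (interval 12.2 to 15.2) with 3.08. On 2L it was 13.0% (interval 11.5 to 14.7) with 2.78, and on the X 11.9% (interval 10.5 to 13.6) with 2.59. Neighbouring arms in this order had overlapping intervals. Arm 2R also had the most regions of any kind, 95.1 per Mb against 74.2 to 81.3 on the other arms, and the part of this density in its share of packed regions was not tested. The X lay below the 14.8% of the 4 autosome arms together, but above them, by 0.93 points, when runs of 4 or more were required, and by 6.15 points when only regions at or above the median score were used. X scores were higher in packed and other regions alike, with medians of 0.518 and 0.521 against 0.446 and 0.456 on the autosome arms.

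**Figure D5:**
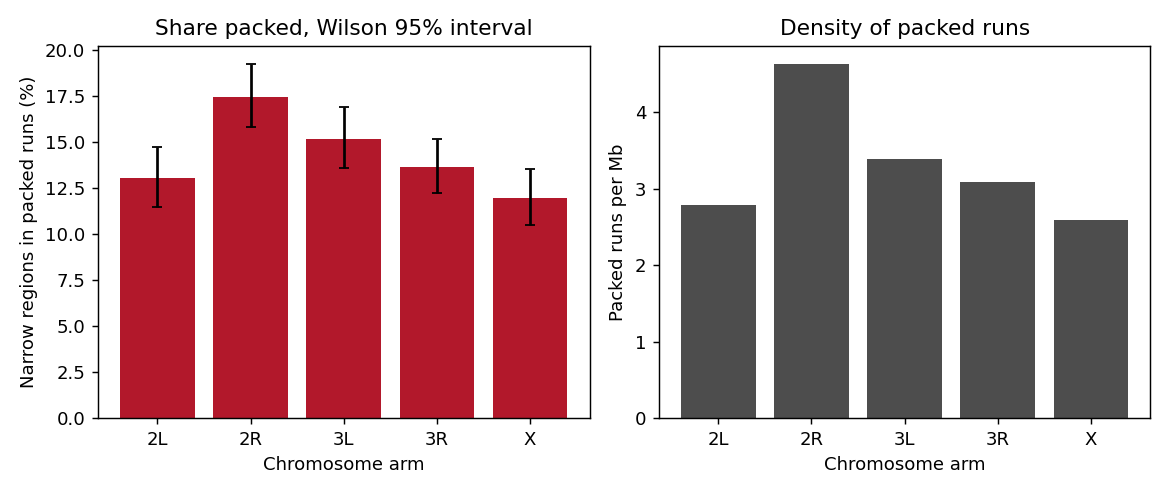
Left, the percentage of narrow whole-series regions that lay in packed runs on each major arm, with Wilson 95% intervals. Right, packed runs per Mb of arm sequence. Arm 2R is highest in both, at 17.5% and 4.63 runs per Mb, and the X is lowest, at 11.9% and 2.59.

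Along the arms the runs were unevenly spread. Neighbouring runs lay a median of 176 kb apart, 31 runs began within 10 kb of the run before, and the longest distance between neighbouring runs was 1.82 Mb. In the 2 Mb nearest the centromere end of each arm 34 of 453 narrow regions were packed (7.51%), against 14.6% of 8707 in the rest. The part of region density in this contrast was not tested. Of 241 bins of 500 kb, 60 held no packed region. The most, 23 packed regions in 7 runs, lay in 2R from 11500001 to 12000000 and in 3L from 22000001 to 22500000. The 24 bins with the most packed regions held 27.7% of them and 14.6% of all regions, a contrast that ordering bins by packed regions widens by construction.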

How the data were processed

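The authors deposited lists of regions enriched for Pol II, one for each ChIP replicate and one for the replicate set. The aligner was Bowtie 0.12.7, as the submitters' processing notes state, and positions are on FlyBase release 5, per the file headers. How regions were called, at which threshold, and how replicates were joined were not given in the sources used here. Per the file headers each row gives a region's first and last base and a score, which is the authors' deposited value. The lists hold no read counts, so depth is unknown. The inputs could enter only through the region calls, and whether they were used there was not given.

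Regions were sorted by start, and a gap was the next start minus the last end minus 1. Support was an overlap of at least 1 bp with a replicate region. Width classes were bounded at 1300, 1600, 2000 and 3000 bp, and the 5 score classes were taken over narrow major-arm regions. Intervals are Wilson 95% intervals, and the limit for a count of 0 is 3 regions or gaps. The named runs were the 10 with the most members (longer span first among ties, which leaves out 1 run of 6), and those highest in median score, smallest in mean gap among runs of 4 or more, or with all or no members supported, of which some are described. The runs overlapping runs of both replicates were named after their values were seen. The members, classes and rules were chosen with earlier results of these data known. Finding runs and overlaps was tested on simulated data. Alternatives changed the gap limit, run size, width and score limits, the overlap rule, and left out each replicate. The scripts ran under Python 3.11.15 with pandas 2.3.3, numpy 2.4.6, matplotlib 3.10.9 and scipy 1.17.1. Gene annotation was not used, since the available gene table is on release 6 and no coordinates were converted.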

Additional observations from a re-analysis of the deposited data

Results flagged for a closer look

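Packed runs also occurred outside the major arms, in regions that entered none of the comparisons above. On chromosome 4, a small chromosome with much heterochromatin, 10 of 87 narrow regions (11.5%) lay in packed runs, against 14.3% on the major arms. They formed 3 runs with at most 4 members. Of the 10 regions 5 overlapped both replicates, against 31.8% of packed regions on the major arms. The heterochromatin scaffolds 2LHet and 3RHet each held 1 run of 3 regions, of which 0 and 2 overlapped both replicates. There is no control list to set these counts against.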

How the results depend on the processing

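The number of packed regions followed the rule. It was 588 in 183 runs with a gap limit of 500 bp and 2723 in 733 runs with 2000 bp. Requiring 4 or more members left 448 regions in 102 runs, the median score of the list 161 in 50, and the narrowest replicate width 691 in 211. The mean number of runs in the replicate lists was 21.0, 141.5 and 7.50 with gaps of 500 and 2000 bp and with 4 or more members, 10.0 at or above the median score and 74.0 with no width limit. These counts change by construction. The share of packed regions overlapping both replicates was 28.1% for runs of 4 or more, 37.6% with no width limit, 44.1% at or above the median score, 40.5% at or above the narrowest replicate width, 26.6% with reciprocal overlap and 42.1% with extended replicate regions. With a replicate left out, the share overlapping the remaining one was 43.5% to 44.5%.

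Packed minus other support was -3.23 points as reported. It was -0.52 with no width limit, -1.30 with a gap limit of 500 bp and -5.01 with a gap limit of 2000 bp. With a replicate left out it was -2.51 to -1.16. Here and for the differences below, support then means overlap with the remaining replicate. Packed minus other support was -5.11 with reciprocal overlap, -5.91 at or above the narrowest replicate width and -6.76 for runs of 4 or more. It was -16.4 at or above the median score, and -6.32 with other regions weighted to the widths of the packed ones. With extended regions it was 4.58. Extended regions can reach a close neighbour's replicate region, and the part of this in the change was not tested. The score difference was -0.038 at or above the median score. X minus autosome packing, -2.90 points as reported, was -1.41 with a gap limit of 2000 bp, -1.65 at or above the narrowest replicate width, -1.02 points with a gap limit of 500 bp, 0.93 with 4 or more members and 6.15 at or above the median score. The alternatives for widths above 2000 to 3000 bp and for run ends were chosen after seeing the data. At these widths the difference was -22.5 points for runs of 4 or more, -8.84 with extended regions and -11.0 to -10.1 with a replicate left out. Inner minus end support was -15.6 points at or above the median score, 0.79 with extended regions, and -9.35 to -4.82 with a replicate left out. Where no construction is named, the cause was not tested. Gaps reached by 1 replicate region were 0.54% to 2.50% with a replicate left out. Of 77 alternative values, 4 changed sign. Another 32 moved beyond the interval or replicate SD of the reported value, or for counts of regions and runs by over 1.5 times. The other 41 did not, though some of these changed by more than 1.5 times. For the number of replicate runs and the share of covered gaps, leaving out 1 of 2 replicates can never move beyond that SD. No paired analysis was possible because the lists hold no values for the inputs, the only other group. The lists give no depth, and its limits were not assessed.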
